A study of Mus musculus with 10 samples.

Results

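The salivary gland sample of a mouse tissue series was set against the other 9 tissues, so that 1 of the 10 samples is described here, chosen by its title. Each tissue was represented by 1 pooled total RNA sample of the outbred CD1 strain, and the tissues set against salivary were testis, spleen, muscle, lung, liver, kidney, intestine, heart and brain. The sources used here give no treatment, genotype, age, sex or number of pooled animals, and no tissue had a replicate, so no p-value was computed and every difference below describes these 10 arrays. The array carried 21882 probes for 3126 alternative splicing events. For each event, C1, A and C2 are probes in the body of the upstream or downstream neighbouring exon and of the alternative exon between them, C1:A and A:C2 cross the junctions made when the alternative exon is kept, and C1:C2 crosses the junction made when it is left out. These roles were read from the probe names, since the labels say only that exon bodies and splice junctions were probed. A probe marked INT completes the set of 7, and its role is not given in the sources used here.

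Salivary glands are built from acinar cells, which make and export the proteins and fluid of saliva, and from ducts, which modify the fluid, with myoepithelial cells, vessels and immune cells around them. In a cassette exon event the spliceosome either keeps the alternative exon in the messenger RNA or joins its neighbours directly, and the balance between the outcomes often differs between tissues because tissues differ in their RNA-binding proteins. In a whole-gland extract, fewer cells of a type and less RNA per cell cannot be told apart. Events carry a number with the prefix Ben and no gene name in the files, so that neither the salivary label nor any cell type could be checked against marker genes, no pathway could be counted, and no probe sequence could be shown.

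Values are in the deposited units, a compressed scale that starts at 0 and whose base is not stated, so differences are given in units and not as folds. Arrays were centred on their medians before differences were taken, whereas single values are quoted as deposited. The salivary array had the lowest median, 2.04, against 2.10 to 2.19 in the other tissues, and the highest share of probes at exactly 0, 3.33% against 0.635% to 3.16%. Of the INT probes, 7.13% were at 0 in salivary, against 1.70% to 8.32% elsewhere. In salivary, 433 events had both neighbouring exons above the 95th percentile of all INT values (3.13), fewer than in any other tissue (507 to 845). The part of this dimmer array in the results below was not tested. A deviation is the difference between salivary and the median over the 9 remaining tissues. It was called past 4 robust SDs of the deviations of all tissues, which is 2.15 units for transcript level, 1.61 for the junction index, 2.16 for the A probe and 2.11 for single probes.

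Transcript level, the mean of C1 and C2, was high in salivary in 25 of 3126 events (0.8%) and low in 6 (0.192%). Other tissues had from 20 high events in lung to 210 in testis, and from 1 to 10 low events. Muscle (24) and spleen (28) were close to salivary in the number of high events. With the mean of the other tissues in place of their median, 14 events were high. The salivary level deviations had a robust SD of 0.458, between 0.420 in lung and 0.839 in testis.

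The event with the highest level in salivary relative to the other tissues was Ben3434. Its level read 6.61 in salivary, against a lowest of 0, a median of 1.35 and a highest of 5.96 in the other tissues, a deviation of 5.32. The tissue next to salivary was intestine, and kidney was listed at 0 for every probe of the event. All 6 exon and junction probes of Ben3434 were higher in salivary, by 4.06 for C1 up to 6.42 for C2, and its junction index deviated by 0.581. Apart from C1, the medians of the other tissues for these probes, 0.535 for A to 1.07 for C1:A, were dimmer than the INT median over all arrays (1.21). That median served here as a mark of dim values, although the role of INT is not given. The sizes of these deviations are therefore not taken as exact.

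Ben828 read 7.01 in salivary, against a lowest of 1.99, a median of 3.01 and a highest of 5.10 in the other tissues, a deviation of 4.06. Lung, spleen and intestine followed salivary, at 5.10, 5.04 and 4.43. Its 6 exon and junction probes were higher by 3.53 to 4.67, and the INT probe by 1.37. Ben828 had the widest level gap between salivary and the next tissue, 2.005 units after centring, so that no event stood above every other tissue by the threshold.

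**Figure D1:**
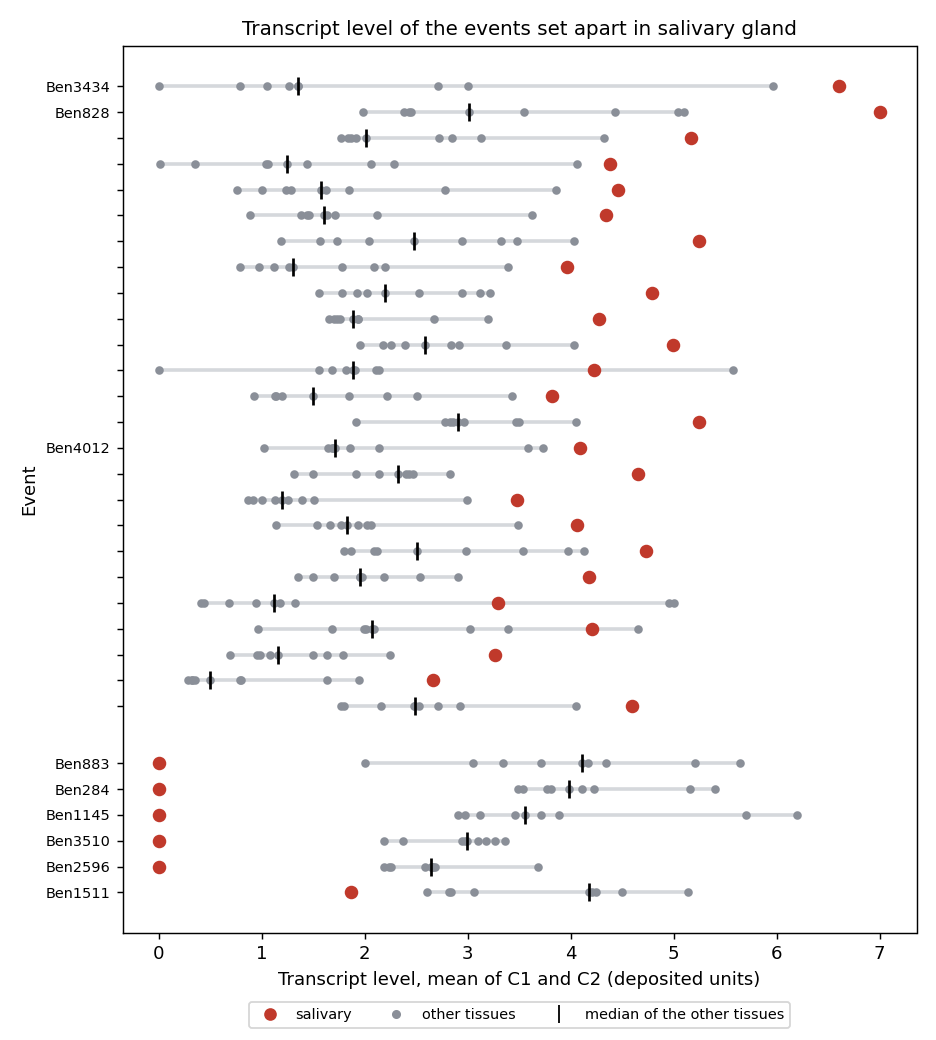
Transcript level (mean of C1 and C2, deposited units) of the 25 events high in salivary (upper block) and the 6 low (lower block), with salivary in red, the other 9 tissues in grey and their median as a black tick. Events named in the text are labelled; salivary lies to the right of all grey points in 22 of the upper rows, and 5 of the lower rows have salivary at 0.

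Over the 25 high events the level deviation had a median of 2.46 and a range of 2.18 to 5.32, and the deviation just short of the threshold was 2.14. Salivary was the highest of the 10 tissues in 22 of them and was exceeded in 3. The gap from salivary to the highest other tissue had a median of 0.780 and ran from -1.59 to 2.005. That tissue was intestine in 8 events, brain in 5, lung in 5, kidney in 2, spleen in 2, testis in 2 and heart in 1. Whether some of these events lie in the same transcript is not given in the sources used here.

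The probes within these events were not always high together. In 13 of the 25, all 6 exon and junction probes were higher by over 2 robust SDs of the probe deviations (1.05 units), whereas in 4 events 1 neighbouring exon carried the call and the other deviated by less than that. Both C1 and C2 passed the probe threshold in 9 events. In those 9, the median deviation was 3.07 for C1, 2.81 for C2, 2.78 for A, 2.42 for C1:A, 2.95 for A:C2 and 2.80 for C1:C2. The alternative exon was higher past its own threshold in 10 of the 25 high events. In another 10 it was within 1.05 units of the median of the other tissues. Across the array, 3 events had all 6 exon and junction probes high in salivary, against 3 to 69 in the other tissues.

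Of the 6 events low in level, 5 were listed at 0 in salivary for all 7 probes, INT included. They are Ben883 and Ben284, named by the rule for naming events, and Ben1145, Ben3510 and Ben2596, named after their values were seen. For Ben883 the level was 0 in salivary, against a lowest of 1.998, a median of 4.11 and a highest of 5.65 in the other tissues. For Ben284 it was 0 in salivary, against a lowest of 3.49, a median of 3.99 and a highest of 5.40. No other tissue was at 0 for any probe of these 5 events. A 0 in every probe of an event also occurred in Ben2508, which was not called. Its level had a median of 1.49 in the other tissues and reached 5.34 in lung. Such events numbered 6 in salivary and from 0 to 4 in the other tissues. The INT probe of Ben883 read from 3.16 to 5.24 in the other tissues, and it was at 0 in salivary together with the exon and junction probes. What set these probes to 0 was not tested.

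The sixth low event, Ben1511, also named after its values were seen, kept a measured level in salivary. It read 1.87 there, against a lowest of 2.61, a median of 4.18 and a highest of 5.14 in the other tissues. Its 6 exon and junction probes were lower by similar amounts, with deviations from -2.27 for C2 to -2.001 for A. The INT probe deviated by 0.317 and the junction index by -0.0314. All exon and junction probes of Ben1511 were thus lower in salivary by nearly the same amount.

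Exon inclusion was described by the junction index, which sets the average of both inclusion junctions against C1:C2. An exon was called where the index passed its threshold, the body index, A relative to transcript level, had the same sign, and both neighbouring exons were above the lowest 25% of values. Of 2327 testable exons, 7 (0.301%) were more included in salivary and 10 (0.43%) more skipped. The other tissues had from 3 to 43 exons more included and from 12 to 57 more skipped. Salivary thus had fewer skipped exons than any of them, though close to the 12 of spleen. Its skipped exons numbered 15 with quantile normalization and 8 to 13 with 1 comparison tissue left out. The other tissues were not recounted in those settings, so that this rank is not settled. The index passed its threshold in 22 events in salivary, of which 4 failed on the neighbouring exons. The body index had the opposite sign in 3 of those 4 and in 1 of the 18 that passed. The junction probes chose these exons, so their direction in the called exons is a description.

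The 10 exons called more skipped deviated by -4.09 to -1.63, with a median of -2.26. Their C1:C2 junction was higher by a median of 2.60 and by over 1.05 units in 8 of 10, and the medians were 0.172 for C1:A and 0.00543 for A:C2. Both inclusion junctions deviated by less than 1.05 units in 7 of the 10, whereas in the other 3 they ran from -1.66 (A:C2 of Ben2150) to 3.83 (C1:A of Ben3942). The A probe deviated by less than 1.05 units in all 10. Transcript level was above the median of the other tissues in 9 of the 10, with a median deviation of 1.22. Among the 10, 3 were high transcripts. C1 and C2 were both higher by over 1.05 units in 4 of the 10, so that the skipped exons had no single probe pattern. Salivary had the lowest index of the 10 tissues in 6 of these 10 exons.

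Ben4012, named after its values were seen, was 1 of those 4. Its C1:C2 junction read 4.74 in salivary, against a lowest of 0.609, a median of 1.52 and a highest of 3.46 in the other tissues. C1 was higher by 3.03 and C2 by 1.73, whereas A deviated by 0.307 and A:C2 by 0.627. C1:A read 0.201 in salivary and had a median of 0.277 elsewhere, both dimmer than the INT median, so that no size was read from this junction. The junction index was -3.61 in salivary, against a lowest of -2.22, a median of -0.580 and a highest of -0.159 elsewhere. The tissue next to salivary was testis.

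The rule for naming events gave Ben2150 and Ben3942, the skipped exons that passed a junction filter. This filter asked that the inclusion junctions, on average, and C1:C2 each exceed the 95th percentile of INT (3.13). Either salivary or the median of the others could meet it. In Ben2150, C1:C2 exceeded it in salivary (7.30) but not in that median (2.77), and A:C2 read 2.54 in salivary. In Ben2150 the index was -2.45 in salivary, against a lowest of -0.844, a median of 1.64 and a highest of 2.60 in the other tissues, a deviation of -4.09. C1, C1:A and C1:C2 were higher in salivary by 2.74, 2.28 and 4.64, C2 and A:C2 deviated by -1.27 and -1.66, and A by -0.0572. The inclusion junctions of Ben2150 thus deviated in opposite directions from the medians of the other tissues. C1:A (7.16) was above their highest (5.38), whereas A:C2 (2.54) was within their range of 2.10 to 5.40.

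In Ben3942 the index was -1.87 in salivary, against a lowest of -1.14, a median of 0.169 and a highest of 0.742 in the other tissues. C1:A read 7.37 and C1:C2 7.28 in salivary, with deviations of 3.83 and 3.73, while A:C2 deviated by 0.0984, C1 by -0.347 and A by -0.306. With C1:A as the inclusion junction the index deviated by -0.145, and with A:C2 by -4.03. The call for Ben3942 thus came from a higher C1:C2 set against a nearly unchanged A:C2, while C1:A was higher by about as much as C1:C2. In 7 of the 10 skipped exons both inclusion junctions taken singly passed the threshold.

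**Figure D2:**
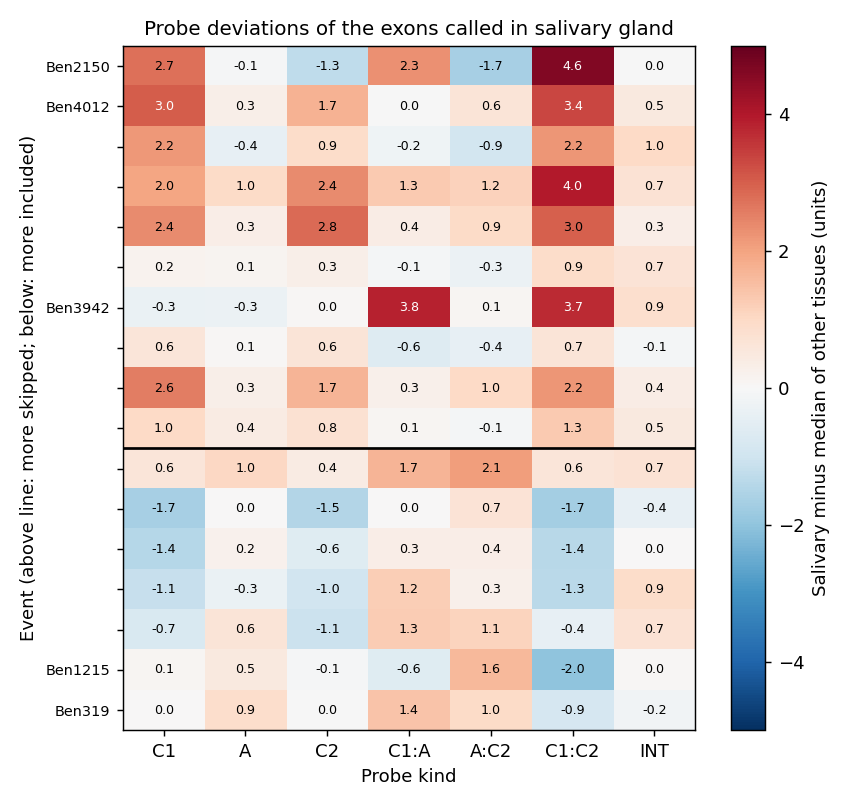
Deviation of each of the 7 probe kinds in salivary from the median of the other 9 tissues (units, red higher and blue lower), for the 10 exons called more skipped (above the line) and the 7 called more included (below it), with events named in the text labelled. In the upper block the C1:C2 column is red while the A column stays near 0, and Ben2150 and Ben3942 have inclusion junctions that differ from each other.

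The 7 exons called more included deviated by 1.71 to 2.46, with a median of 2.03. Transcript level was above the median of the other tissues in 3 of the 7, with a median deviation of -0.925, and none passed the level threshold. C1:C2 was lower by over 1.05 units in 4 of them, an inclusion junction was higher by over 1.05 units in 5, and A deviated by less than 1.05 units in all 7. None had both its inclusion junctions, on average, and its skipping junction above the 95th percentile of INT, in salivary or in the median of the others. Salivary had the highest index of the 10 tissues in 4 of the 7. Both inclusion junctions taken singly passed the threshold in 3, and without spleen in the comparison 11 exons were called more included.

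In Ben319 the index was 1.84 in salivary, against a lowest of -2.95, a median of -0.623 and a highest of 1.82 in the other tissues. Kidney (1.82) and liver (1.66) had nearly the same index as salivary, and spleen had the lowest, so that salivary is set apart from the median but not from kidney. C1:A was higher by 1.41, A:C2 by 0.953 and A by 0.874, and C1:C2 deviated by -0.851, while level deviated by 0.0494. Each probe of Ben319 that reports the exon thus lay on the inclusion side at an equal transcript level.

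In Ben1215 the index was 2.28 in salivary, against a lowest of -0.637, a median of 0.125 and a highest of 1.78 in the other tissues, the highest being intestine. C1:C2 read 0.553 in salivary, dimmer than the INT median, against a lowest of 1.69 and a median of 2.62 elsewhere. A:C2 was higher by 1.60, but C1:A deviated by -0.598 and A by 0.496. The level of Ben1215 deviated by 0.0128. With values floored at the INT median its index deviated by 1.47, against a threshold of 1.37 in that setting.

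The A probe by itself was high in 22 events (0.704%) and low in 9 (0.288%) in salivary. The other tissues had 17 to 194 high and 0 to 8 low. Low A probes were thus the one class of these calls in which salivary had more than every other tissue, and 5 of the 9 belonged to the events listed at 0 in all probes. Without these events 4 were left, and without kidney in the comparison 5 A probes were low. After quantile normalization 36 A probes were high and 7 low, so that 83.7% of calls were high, against 71.0% with centred arrays. Of the 22 high A probes, 10 lay on transcripts that were also high and 12 did not.

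Among those 12, only 4 had both inclusion junctions higher by over 1.05 units, and none of the 22 was an exon called by the junction index. The rule for naming events gave Ben1488 and Ben1233. The A probe of Ben1488 read 7.06 in salivary, against a lowest of 1.59, a median of 2.66 and a highest of 3.35 in the other tissues, a deviation of 4.54. Every other probe of Ben1488 deviated by between -0.414 and 0.740, the junctions with A by 0.00255 and 0.245. The A probe of Ben1233 read 7.57 in salivary, against a lowest of 2.43, a median of 3.20 and a highest of 4.26, a deviation of 4.43. Its A:C2 junction was higher by 1.27, while C1:A deviated by -0.537 and level by -0.754. In both events the exon body was bright in salivary without a similar deviation at both of its junctions.

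Among the low A probes of transcripts whose level was not called, Ben194 read 1.96 in salivary, against a lowest of 3.63, a median of 4.25 and a highest of 5.74 in the other tissues. A:C2 and C2 were also lower, with deviations of -2.36 and -1.84, whereas C1, C1:A and C1:C2 deviated by 0.0705, -0.339 and -0.224. The lower values thus covered A, C2 and their junction, and not C1. Ben1920, named after its values were seen, had nearly the same readings in A, C2 and A:C2, which differed from those of Ben194 by at most 0.360, 0.289 and 0.194 in any tissue, and whether they share a transcript is not given in the sources used here. In Ben2258 the A probe read 1.27 in salivary, against a lowest of 1.66, a median of 3.62 and a highest of 4.26, with deviations of -1.01 for C1:A and 0.436 for A:C2. Both calls were near the threshold. With 1 comparison tissue left out, the A probe of Ben194 deviated by -2.10 without heart, kidney, muscle or testis and by -2.12 without spleen, short of 2.16. That of Ben2258 deviated by -1.80 without kidney and by -1.76 without liver, lung, muscle or spleen. It was also short of the threshold with quantile normalization (-2.07) and against the mean of the other tissues (-1.67).

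**Figure D3:**
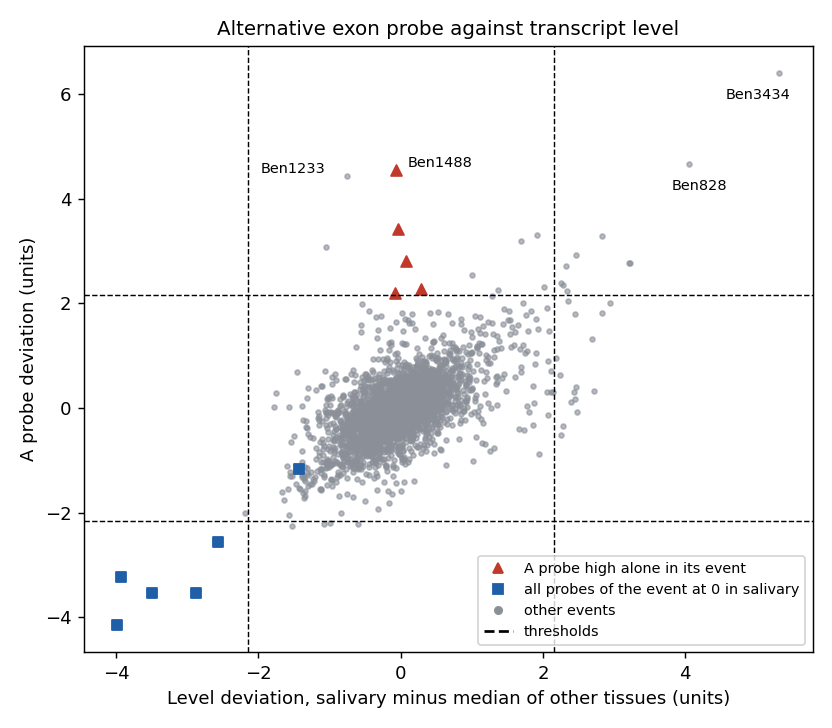
Deviation of the A probe (vertical, units) against deviation of transcript level (horizontal, units) in salivary, 1 point per event for 3126 events, with dashed lines at the thresholds. The 5 red triangles are A probes high alone in their event, a definition that keeps their level deviations small, and the 6 blue squares are the events with all probes at 0 in salivary.

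Probes that stood alone were then counted over all kinds. In salivary 183 probes were high (0.836%) and 47 low (0.215%), against 128 to 1290 high and 8 to 65 low in the other tissues. A high probe was taken as isolated where each of the other 6 probes of its event deviated by less than 1.05 units, a definition made after seeing the data. Salivary had 33 such probes, 18.0% of its high probes. The share was 24.7% in muscle and 22.6% in spleen, and from 2.51% to 8.76% in the other 7 tissues. In number, muscle (81), spleen (74), testis (67) and brain (42) had more isolated probes than salivary. The remaining tissues had from 5 in lung to 31 in intestine. The share thus also depends on the number of high probes, which was 183 in salivary. The isolated probes of salivary were 8 C2, 7 C1, 7 INT, 5 A, 5 C1:A and 1 A:C2, and no C1:C2. Their make-up differed in muscle and spleen, where C1:A was the most frequent kind, with 37 of 81 and 33 of 74.

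The isolated probes read from 3.97 to 7.63 in salivary with a median of 6.03, and 17 of the 33 read above 6. They were chosen for a high deviation, so that bright readings follow in part from the choice. The other high probes were not summarised beside them. All 33 lay above every other tissue. Their deviations had a median of 2.84 and reached 4.59. For comparison, the highest value on the whole salivary array was 7.63, and it was an isolated C1 probe. Among the 47 low probes, 33 were values of 0, and 14 low probes were left without the 6 events listed at 0 throughout.

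**Figure D4:**
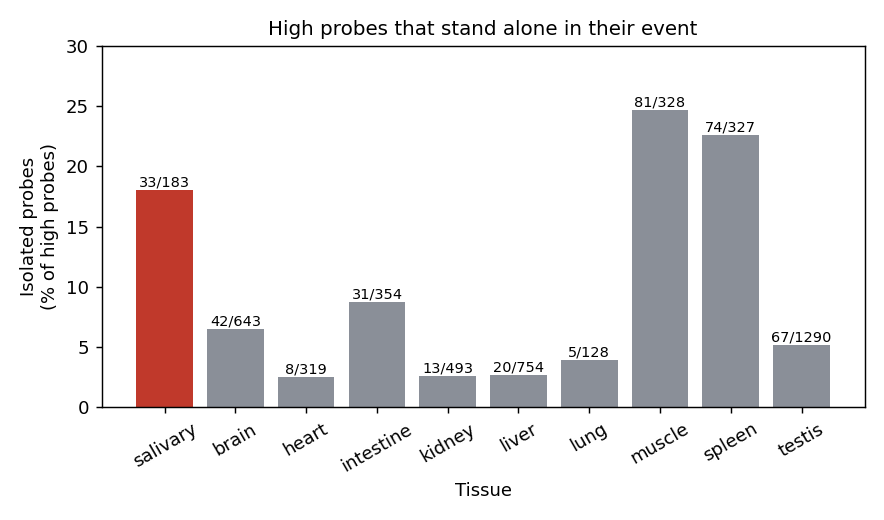
Share of the high probes of each tissue (percent) whose event has no other probe deviating by 1.05 units or more, with the counts of isolated and of high probes above each bar; salivary is in red. Salivary (18.0%), muscle (24.7%) and spleen (22.6%) stand above the other tissues, none of which passes 8.76%.

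Salivary was finally set against each other tissue directly, without the shared median. By transcript level it differed least from lung, with a median absolute difference over events of 0.278 units, followed by intestine at 0.353 and muscle at 0.356. It differed most from testis, at 0.653, with liver at 0.552 and kidney at 0.517. Against lung, 20 events were higher in salivary by the threshold and 28 lower. Against testis, 53 were higher and 271 lower. The junction index gave lung (0.219), intestine (0.260), muscle (0.279) and spleen (0.303) as the nearest tissues, and brain (0.427) and testis (0.449) as the farthest. With quantile normalization brain (0.452) was farther than testis (0.436) by the index. Lung was the nearest by the A probe too, at 0.281. Across all tissues, lung also had the lowest robust SD of its own deviations, in level (0.420), junction index (0.304) and A probe (0.411). Testis had the highest in each, at 0.839, 0.528 and 0.767. Brain had a wider spread in level (0.636) than heart (0.541) and kidney (0.576). On centred arrays its level differed from salivary by 0.469, against 0.473 for heart and 0.517 for kidney. With quantile normalization brain (0.513) lay between heart (0.493) and kidney (0.540). By the junction index brain (0.427) was farther than heart (0.384) and kidney (0.403), and by the A probe it was nearer (0.499 against 0.518 and 0.558). How far these spreads, rather than a likeness to salivary, set the order of tissues was not tested.

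**Figure D5:**
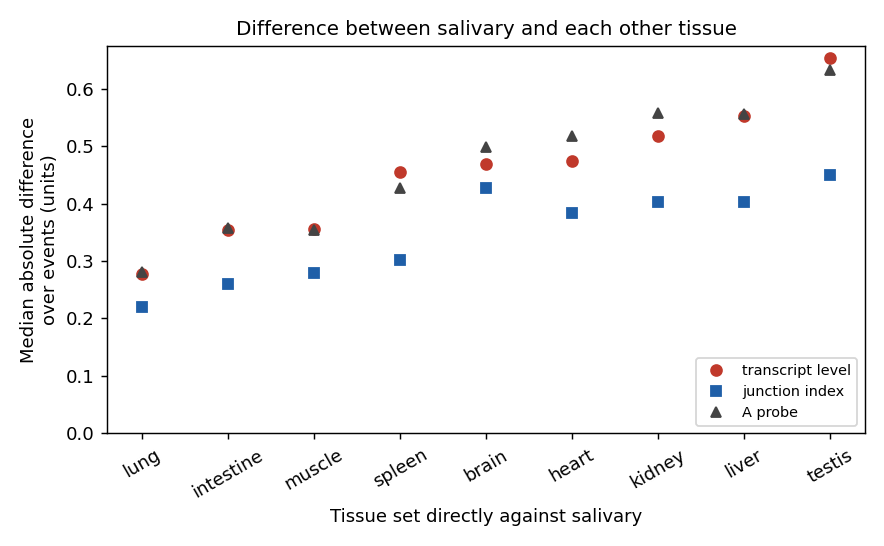
Median absolute difference over 3126 events between salivary and each other tissue (units), for transcript level (red circles), junction index (blue squares) and A probe (dark triangles), tissues ordered by level. On these centred arrays lung is lowest and testis highest in all 3 measures, while with quantile normalization brain (0.452) passes testis (0.436) in the junction index.

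Salivary had the highest level in 191 events (6.11%) and the lowest in 285 (9.12%), against 21.8% highest and 15.6% lowest in testis and 5.28% highest and 6.81% lowest in lung. The order of the salivary level counts turned with quantile normalization, to 271 highest and 239 lowest. By junction index it was highest in 203 events (6.49%) and lowest in 312 (9.98%), and by the A probe highest in 282 (9.02%) and lowest in 250 (7.997%). No event had a salivary level above every other tissue by the threshold, against 1 to 86 such events in each other tissue. The salivary level was below every other by it in 2, Ben284 and Ben1145, both listed at 0, against 0 or 1 such event in each other tissue. By junction index 0 events lay above and 1 below, against 0 to 12 above and 1 to 25 below in the other tissues. The A probe of 3 events exceeded every other tissue by the threshold, among them Ben1488 and Ben1233, against 1 to 85 in the other tissues. The A probe of another 3, Ben284, Ben1145 and Ben3510, was below every other tissue by it, against 0 or 1 in each other tissue, and all 3 were listed at 0. With values floored at the INT median 9 A probes were above every other tissue and 0 below, and 1 level was above and 1 below.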

How the data were processed

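The values are a score per probe deposited by the authors, with unstated base, background correction and between-array normalization, and the labels name no tool or build. No sample column was left unused. Arrays were centred on their medians, and salivary was set against the median of the other 9 tissues. Thresholds were 4 robust SDs (median absolute deviation times 1.4826) of the deviations of all 10 tissues. Single samples allowed no model, and precision is limited by the number of arrays. The rule for named events took at most 2 in each direction for level, for called exons and for A probes. Among called exons, those passing the junction filter at the 95th percentile of INT came first. The A probes had to be measured on both sides, without a level call. Later choices are marked. The measures, thresholds and rules were chosen with earlier results of these data known. Planned gene lists were not applied, since no event number could be paired with a gene. Calling was tried on simulated data with even noise, in which only higher levels and more included exons were planted. Recovery was required only for the larger planted shifts, and the filter on neighbouring exons was not applied. Low levels, skipped exons and isolated probes were not simulated, so the trial does not bear on those calls. Alternatives covered scaling, comparator, threshold, floor, filters and index. Versions were matplotlib 3.10.9, pandas 2.3.3, numpy 2.4.6 and Python 3.11.15.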

Additional observations from a re-analysis of the deposited data

How the results depend on the processing

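No paired analysis was possible because every group holds only 1 sample. Counts stayed within 1.5 times of those reported unless given here, and no deviation of the 12 events named by rule changed sign. Only Ben194 and Ben2258 among them fell short of the threshold in any scaling, comparator or left-out setting. The cause of the shifts was not tested, except that other thresholds and stricter filters change counts by construction. With the mean of the other tissues as comparator, 14 events were high in level, and the median level deviation moved by -0.100. With quantile normalization, 36 A probes were high, 6 A probes exceeded and 2 junction indices lay below every other tissue by the threshold, and 144 events in level and 133 in A differed from liver by it. With values floored at the INT median, 12 exons were more included and 16 more skipped, 42 A probes were high, and 373 probes were high and 127 low; against every other tissue 1 level lay above and 1 below by the threshold, 2 indices below, 9 A probes above and 0 below, and 158 A probes were lowest. With a threshold from salivary alone, 43 events were high in level, 17 exons more included, 20 more skipped and 72 probes low. At 3 robust SDs, 60 levels were high and 10 low, 32 exons more included and 31 more skipped, 55 A probes high and 23 low, and 390 probes high and 154 low. Included exons numbered 14 with C1:A and 12 with A:C2 as the inclusion junction. They numbered 18 by the body index and 3 where each junction alone had to pass. With the junction filter at the 95th percentile of INT 0 were included and 2 skipped. With C1 and C2 each past the threshold, 9 levels were high and 3 low. In events without a level call 12 A probes were high and 4 low. Without events at 0 in all probes, an alternative added after seeing the data like isolation and single junctions, 1 level, 4 A probes and 14 probes were low. Leaving out 1 comparison tissue at a time, levels numbered 24 to 28 high and 5 to 6 low, exons 5 to 11 included (11 without spleen) and 8 to 13 skipped, A probes 21 to 23 high and 5 to 10 low (5 without kidney), and probes 172 to 191 high and 41 to 61 low.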
